A study of Schizosaccharomyces pombe with 2 samples.

Results

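Introns of Schizosaccharomyces pombe genes that were read in mainly one of a pair of RNA libraries are described here. An intron belonged to the set when its spliced and unspliced reads summed to 20 or more in one library and to under 20 in the other. Of 5374 introns in the deposited table, 898 met this rule. They fell into 621 introns of 511 genes read mainly at 34 °C, called 34 °C-rich introns below, and 277 introns of 202 genes read mainly at 25 °C, called 25 °C-rich introns. These names follow the rule on counts before scaling and can overstate a difference. After scaling by library totals, 130 of the 277 25 °C-rich introns were 2-fold or more lower at 34 °C, and 19 were higher there. A further 2508 introns had 20 or more reads in both libraries, and 1968 had under 20 in both. The members were chosen by the read counts of both libraries, so the differences in reads given below are a description and no test was made of them.

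The cells were fission yeast of the genotype pat1_as2 prp2-1, grown in minimal medium at 25 °C and arrested in G1 by nitrogen starvation before meiosis was induced with a chemical. When meiosis I began, the culture was divided. One portion was moved to 34 °C, the restrictive temperature of prp2-1, and the other stayed at 25 °C, the permissive one, and polyA RNA of each was sequenced after 1 h. Both libraries therefore come from the same strain and carry the same alleles, and no library from cells with wild-type prp2 at 34 °C was analysed here. Loss of Prp2 activity and the warmer temperature itself cannot be told apart in this design. With 1 library per temperature there was no replicate check, and the intervals below cover counting error only, since copies made by PCR are not independent molecules.

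Prp2 is the large subunit of U2AF, the factor that binds the pyrimidine-rich stretch near the end of an intron and helps the U2 snRNP to reach the branch site. The U1 snRNP pairs with the 5′ splice site at the other end of the intron. A read of polyA RNA that spans the joined exons is a spliced read. A read that still holds intron sequence is taken here as an unspliced read, although the definition used in counting was not given. Fission yeast introns are short, and many genes of meiosis hold several. Among them is the wtf family, some of whose genes destroy spores not inheriting them. The annotation names wtf4, wtf5, wtf16 and wtf21, which are met below, as antidotes or antidote-like.

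The sequences of 8 members among the largest differences, 4 in each direction, show what kind of introns these are. Introns without a sure place in the annotation, those of rpl701, mst2 and vps901 among them, were passed over. The sequences are copied from the RefSeq genome ASM294v3, 5′ to 3′ on the strand of the gene. Capitals mark the first 6 bases, which form the 5′ splice site, the final AG, and any match to the branch site letters CTAAC, its form CTAAT, or the variants with G as the third base (CTGAC and also CTGAT) within the last 60 bases on that strand. The first 4 are 34 °C-rich and the last 4 are 25 °C-rich.
pkl1 intron 1, chrI:3438945-3438986, plus strand: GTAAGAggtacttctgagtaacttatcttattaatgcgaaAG
arb1 intron 1, chrI:1900166-1900206, plus strand: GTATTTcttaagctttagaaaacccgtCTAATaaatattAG
fkh2 intron 1, chrII:4241859-4242150, minus strand: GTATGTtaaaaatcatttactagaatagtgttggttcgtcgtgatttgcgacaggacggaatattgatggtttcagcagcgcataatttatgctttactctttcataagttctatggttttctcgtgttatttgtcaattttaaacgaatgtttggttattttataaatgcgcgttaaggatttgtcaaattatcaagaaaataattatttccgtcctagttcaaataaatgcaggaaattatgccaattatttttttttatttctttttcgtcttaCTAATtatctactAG
mad1 intron 1, chrII:1276898-1276947, minus strand: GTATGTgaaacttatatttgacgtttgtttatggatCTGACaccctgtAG
wtf5 intron 4, chrIII:244844-244892, plus strand: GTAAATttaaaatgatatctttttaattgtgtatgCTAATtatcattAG
wtf5 intron 3, chrIII:244761-244801, plus strand: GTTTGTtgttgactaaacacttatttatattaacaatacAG
SPBC1348.07 intron 1, chrII:20059-20108, plus strand: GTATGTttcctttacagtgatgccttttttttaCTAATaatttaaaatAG
gih35 intron 8, chrI:2128233-2128270, plus strand: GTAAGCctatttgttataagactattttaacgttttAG
The fkh2 intron, with 292 bases, was the longest of the 8, and the gih35 intron, with 38 bases, was the shortest. The introns of pkl1, gih35 and wtf5 intron 3 held none of the 4 branch site words in this window, which says only that these letters are not there. Over introns whose place in the annotation was sure, the words were found in 76.7% of 369 34 °C-rich introns, in 73.2% of 153 25 °C-rich introns and in 77.9% of 1436 introns read in both libraries.

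The 34 °C library held 493659 intron reads, of which 39.9% were unspliced. The 25 °C library held 636989 intron reads, of which 6.56% were unspliced. Members are thus a thin layer of both libraries: the 34 °C-rich introns held 4.33% of the reads at 34 °C and 1.16% of those at 25 °C, and the 25 °C-rich introns held 0.709% at 34 °C and 1.64% at 25 °C. Of the introns of genes for the meiotic divisions and their regulators, 34 of 49 had 20 or more reads in at least 1 library. For genes of meiotic prophase, recombination and the chromosome axis it was 15 of 88, beside 3406 of all 5374 introns. In bulk RNA, fewer cells at a stage and less RNA per cell cannot be told apart.

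The 34 °C-rich introns made up 18.2% and the 25 °C-rich introns 8.13% of the 3406 introns with 20 or more reads in at least 1 library. Most members lay near the minimum, with 20 to 49 reads in the deeper library for 535 of the 34 °C-rich and 227 of the 25 °C-rich introns. The 34 °C-rich introns had a median of 29 reads at 34 °C, within 20 to 148, and of 12 reads at 25 °C, within 0 to 19. The 25 °C-rich introns had a median of 13 reads at 34 °C, within 1 to 19, and of 29 reads at 25 °C, within 20 to 335. Only 4 of the 34 °C-rich introns and 9 of the 25 °C-rich introns reached 100 reads in their deeper library. Just inside the limit, 45 introns with 20 reads at 34 °C had a median log2 fold of 1.33, and just outside it, 41 introns with 19 reads at 34 °C and fewer at 25 °C had one of 1.26. On the other side, 21 introns with 20 reads at 25 °C had a median log2 fold of -0.47. The 19 introns just outside, with 19 reads at 25 °C and fewer at 34 °C, had one of -0.53. The introns just outside were chosen to have fewer reads in the other library, as members near the limit do. Like medians follow in part from that choice, so nothing is concluded from them. The edge at 19 reads in the shallower library, with 42 34 °C-rich and 33 25 °C-rich introns, was not examined.

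**Figure D1:**
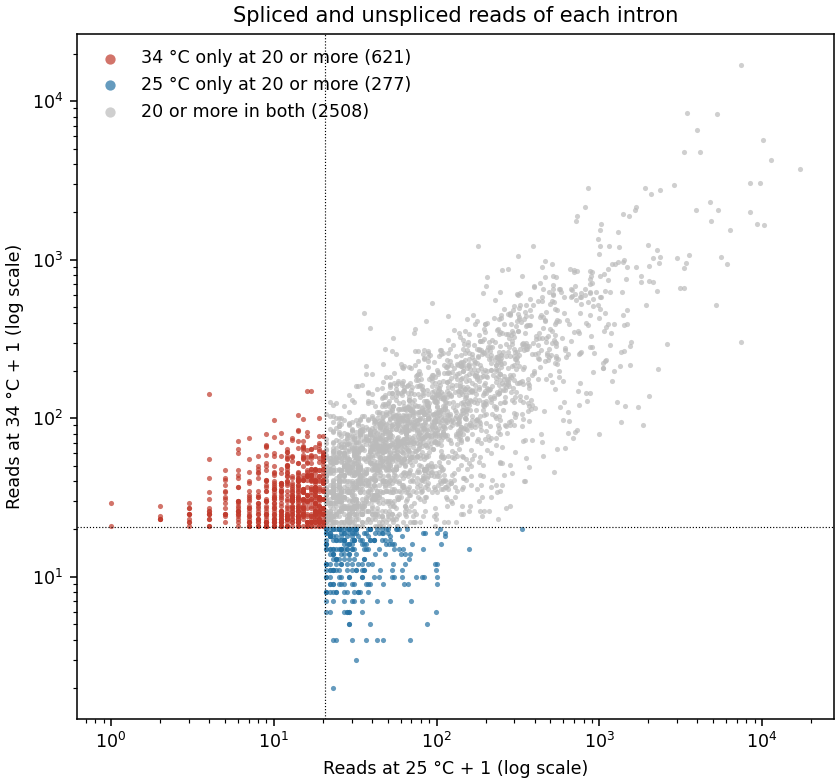
Spliced plus unspliced reads of each intron with 20 or more reads in at least 1 library, at 34 °C on the vertical and at 25 °C on the horizontal axis, both as reads + 1 on log scales; dotted lines mark the minimum of 20. The 621 34 °C-rich introns fill the upper left block and the 277 25 °C-rich introns the lower right block, and members lie at the low end of the 2508 introns read in both libraries.

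After scaling by the library totals, which differ 1.29-fold, all 621 34 °C-rich introns were higher at 34 °C, with a median log2 fold of 1.77, quartiles of 1.31 and 2.38, and a range of 0.44 to 6.20. Folds throughout are 34 °C over 25 °C, and 0.5 reads were added to each count before the log2. A difference of 2-fold or more was seen in 547 of them, or 88.1%, where 36.1% of all 3406 introns were as much higher. The 25 °C-rich introns had a median log2 fold of -0.93, quartiles of -1.72 and -0.46, and a range of -3.92 to 0.30. Which direction differed more depends on the scaling, since the median ratio of introns read in both libraries gave medians of 1.30 for 34 °C-rich and -1.40 for 25 °C-rich introns. Of these, 130 (46.9%) were 2-fold or more lower at 34 °C, against 11% of all 3406, and 19 lay above 0 once the libraries were scaled. The 130 were 73 with scaling by spliced totals and 195 with the median ratio. The counting interval of the ratio included 1 for 75 of the 34 °C-rich and for 142 of the 25 °C-rich introns. Since the rule used this contrast, nothing is read from the distance between these shares and those of all introns.

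The largest 34 °C-rich differences were in introns with hardly a read at 25 °C. Intron 1 of pkl1, for a kinesin-14 motor moving toward microtubule minus ends, had 18 spliced and 10 unspliced reads at 34 °C. It had none at 25 °C. With 25 °C set at a floor of 3 reads it was 12-fold higher, and the exact lower limit of its ratio was 9.16. Intron 1 of arb1, for an argonaute inhibitor protein of the RNA interference machinery, had 1 spliced and 19 unspliced reads at 34 °C. It also had none at 25 °C. On the same floor it was 8.60-fold higher, with a lower limit of 6.37. The pkl1 and arb1 introns were the only members with 0 reads in the other library. Pkl1 intron 3 was read at 25 °C, however, with 21 spliced and 35 unspliced reads at 34 °C against 13 and 1 at 25 °C, so the gene was not silent there.

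Intron 1 of rpl701, annotated as an RNase MRP subunit of the ribosomal protein L7 type, had 142 unspliced reads at 34 °C and 3 at 25 °C, with no spliced read in either library. The ratio was 61.1 (20.48 to 299.7), the largest among members read in both libraries. In the same way, intron 1 of pfd1, for a prefoldin subunit, had 71 unspliced reads at 34 °C and 5 at 25 °C and no spliced one, a ratio of 18.3 (7.49 to 58.2). With no spliced read, nothing shows that these stretches were spliced as introns in these cells. Neither intron could be matched to an intron of the annotation used here.

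Regulators followed. Intron 1 of fkh2, for a forkhead transcription factor, had 14 spliced and 40 unspliced reads at 34 °C against 2 and 1 at 25 °C, a ratio of 23.2 (7.54 to 116.1). Intron 1 of mad1, for a spindle checkpoint protein, had 11 spliced and 11 unspliced reads at 34 °C against 1 and 0 at 25 °C, a ratio of 28.4 (4.59 to 1172). Intron 2 of mst2, for a histone acetyltransferase, had 4 spliced and 23 unspliced reads at 34 °C against 0 and 1 at 25 °C, a ratio of 34.8 (5.74 to 1426). The wide intervals come from 1 to 3 reads at 25 °C. These introns were picked by the same counts, so their intervals are no test of a difference. The remaining members among the 12 largest differences were introns of vps901, plh1, skb1, exg3 and SPCC1529.01, which encode a guanyl-nucleotide exchange factor, an acyltransferase, an arginine methyltransferase, a cell wall glucosidase and a transporter.

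The deepest 34 °C-rich introns gave firmer values. Intron 1 of rrp6, for the exosome exoribonuclease that degrades nuclear RNA, had 97 spliced and 51 unspliced reads at 34 °C against 16 and 0 at 25 °C, 11.9-fold higher (7.11 to 21.4). Intron 1 of lsm3, for a protein of the U6 snRNP, had 25 spliced and 122 unspliced reads at 34 °C against 6 and 9 at 25 °C, 12.6-fold higher (7.42 to 23.2). Both the joined and the intron-holding reads were thus more frequent at 34 °C for these genes. Intron 1 of aco1, for the aconitate hydratase of the citric acid cycle, had 31 spliced and 73 unspliced reads at 34 °C against 5 and 8 at 25 °C, 10.3-fold higher (5.78 to 20.04). Intron 1 of taf8, for a TFIID subunit, had 15 spliced reads at either temperature, while its unspliced reads were 84 at 34 °C against 3 at 25 °C. Intron 5 of cyp3, for a cyclophilin, had 4 spliced and 93 unspliced reads at 34 °C against 8 and 1 at 25 °C. The taf8 and cyp3 introns reached 20 reads at 34 °C through unspliced reads, and the log2 folds of their spliced reads were 0.37 and -0.55.

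The largest 25 °C-rich differences were in wtf introns. Intron 4 of wtf5, annotated as an antidote-like suppressor of meiotic drive, had 3 spliced reads at 34 °C and 68 at 25 °C, with no unspliced read, a ratio of 25 °C over 34 °C of 17.6 (5.76 to 87.3). Intron 3 of the same gene had 1 spliced and 3 unspliced reads at 34 °C against 83 and 3 at 25 °C, 16.7 times as many at 25 °C (6.28 to 62.5). Intron 1 of SPBC1348.07, for an uncharacterized protein, had 5 spliced reads at 34 °C and 98 at 25 °C and no unspliced ones, 15.2 times as many at 25 °C (6.29 to 47.8). In all of these the reads at 25 °C were almost wholly spliced.

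Intron 8 of gih35, for an ATP-dependent RNA helicase, had the most reads of any member, with 16 spliced and 3 unspliced reads at 34 °C against 317 and 18 at 25 °C, 13.7-fold lower at 34 °C (8.61 to 22.98). Intron 2 of rtf1, for an RNA polymerase I termination factor, had 5 spliced and 9 unspliced reads at 34 °C against 155 and 2 at 25 °C, 8.69-fold lower at 34 °C (5.03 to 16.3). Intron 3 of ryh1, for a Rab GTPase of vesicle traffic, had 8 spliced and 0 unspliced reads at 34 °C against 97 and 3 at 25 °C, 9.69-fold lower at 34 °C (4.73 to 23.1). In gih35 and ryh1 spliced and unspliced reads were both lower at 34 °C, whereas in rtf1 the few unspliced reads were higher there. The copper chaperone gene atx1, his6 of histidine synthesis, the lipase gene SPCC1672.09, the uncharacterized SPBC3H7.08c and more wtf genes, wtf6 and wtf16, supplied the rest of the 12 largest differences.

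**Figure D2:**
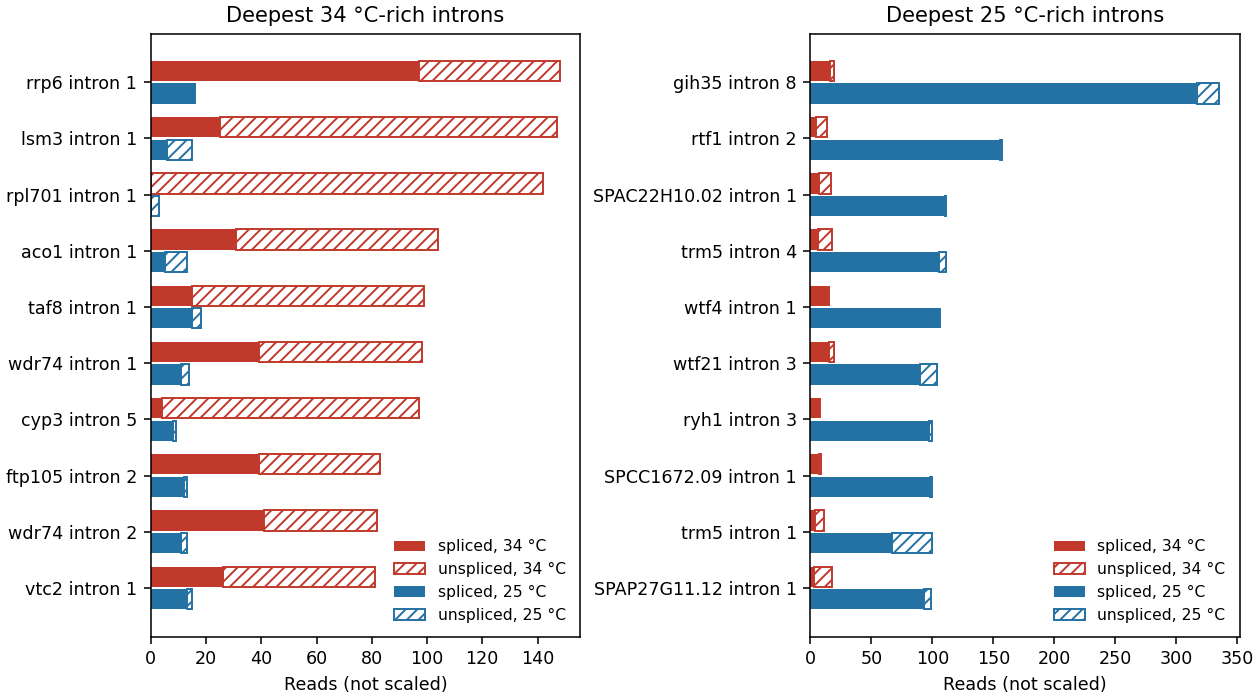
Reads, not scaled, of the 10 deepest 34 °C-rich introns (left) and the 10 deepest 25 °C-rich introns (right), with the 34 °C library as the upper bar and the 25 °C library as the lower bar of each pair; filled stretches are spliced and hatched stretches unspliced reads. Hatched stretches are long in most 34 °C bars on the left, as in rpl701 with 142 unspliced reads, whereas rrp6 has 97 spliced and 51 unspliced reads. The 25 °C bars on the right are mostly filled, as in gih35 with 317 spliced of 335 reads. The longest hatched stretch among them is that of trm5 intron 1, with 33 of 100 reads.

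The reads of the deeper library differed in kind between the directions. At 34 °C the 34 °C-rich introns had a median unspliced share of 52.9%, with quartiles of 28.1% and 76.7%, and 11387 of their 21384 reads were unspliced, or 53.3% (52.6 to 53.9, exact binomial). At 25 °C the 25 °C-rich introns had a median unspliced share of 4.76%, with quartiles of 1.19% and 10%, and 849 of their 10470 reads were unspliced, or 8.11% (7.59 to 8.65). The deeper reads of the 34 °C-rich introns were therefore about as often unspliced as spliced, and those of the 25 °C-rich introns were mostly spliced. Both shares sit beside libraries that differ as a whole, since the 2508 introns read in both libraries had a median unspliced share of 41.4% at 34 °C and 5.6% at 25 °C.

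More than 50% of the reads at 34 °C were unspliced in 326 of the 621 34 °C-rich introns, or 52.5%, against 39.5% of the introns read in both libraries and 42.1% of all introns with 20 reads at 34 °C. The gap was narrower among introns of like depth. With 20 to 49 reads at 34 °C, the share was exceeded in 275 of 535 members (51.4%) and in 346 of 758 introns read in both libraries (45.6%), a comparison chosen after the data were seen. Unspliced reads count toward the minimum of 20, so introns with many of them at 34 °C could enter through these reads. The spread was wide: 50 of the 34 °C-rich introns (8.05%) were over 90% unspliced at 34 °C and 40 (6.44%) were under 10%, beside 3.19% and 9.97% of introns read in both.

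At 25 °C, 7 of the 277 25 °C-rich introns were more than 50% unspliced, or 2.53%, against 1.65% of all introns with 20 reads at 25 °C. No unspliced read at 25 °C was found in 68 of them, or 24.5%, against 10.05% of introns read in both libraries, which were deeper. At 34 °C, where these introns were shallow, 1613 of their 3498 reads were unspliced, or 46.1% (44.4 to 47.8), so the reads that remained there were unspliced nearly as often as those of the 34 °C-rich introns. The 34 °C-rich introns had 14.0% unspliced reads at 25 °C, from 1036 of 7380 reads.

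**Figure D3:**
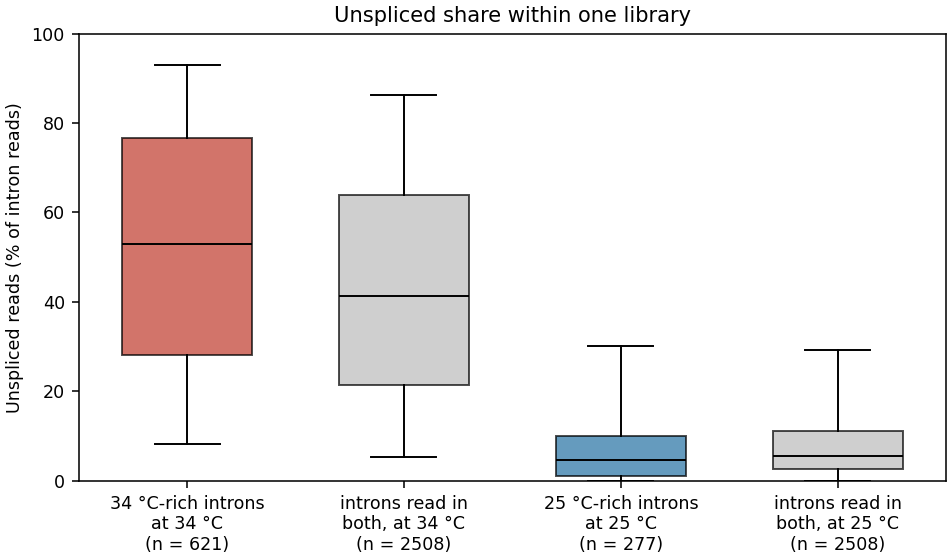
Unspliced share of each intron's reads, in percent, for 34 °C-rich introns and introns read in both libraries at 34 °C (left pair) and for 25 °C-rich introns and introns read in both libraries at 25 °C (right pair); boxes span the quartiles with the median as a line, and whiskers reach the 5th and 95th percentiles. The medians are 52.9% and 41.4% at 34 °C and 4.76% and 5.6% at 25 °C.

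At the extremes of the 34 °C-rich set stood introns of opposite kind. Among members with 50 or more reads at 34 °C, intron 1 of trx2, for a thioredoxin, had 75 spliced reads at 34 °C and 9 at 25 °C and no unspliced read, 10.8-fold higher at 34 °C (5.37 to 24.4), with an upper limit of 4.8% for its unspliced share at 34 °C. Intron 3 of aph1, for a dinucleoside tetraphosphatase, had 69 spliced reads at 34 °C and 18 at 25 °C, and intron 1 of tad3, for a subunit of the tRNA adenosine deaminase, had 64 at 34 °C and 13 at 25 °C, both without an unspliced read. At these 3 junctions every read at the restrictive temperature was spliced, and spliced reads were more frequent than at 25 °C. Introns 1 and 2 of aph1 differed from intron 3: intron 2 had 9 spliced and 65 unspliced reads at 34 °C against 3 and 3 at 25 °C, and intron 1 had 5 and 21 at 34 °C against 5 and 1 at 25 °C. The deepest introns with a high unspliced share, beside rpl701, pfd1 and cyp3, were intron 1 of lea1, for a U2 snRNP protein, with 3 spliced and 56 unspliced reads at 34 °C against 1 and 4 at 25 °C, and intron 1 of slm5, for an asparagine tRNA ligase, with 2 and 49 at 34 °C against 8 and 5 at 25 °C.

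Among 25 °C-rich introns with 50 or more reads at 25 °C, no unspliced share there exceeded 33%, beside 6.56% for the 25 °C library as a whole. Intron 1 of trm5, for a tRNA guanine methyltransferase, had 4 spliced and 7 unspliced reads at 34 °C against 67 and 33 at 25 °C, an unspliced share of 33% at 25 °C. Intron 1 of SPBC3H7.08c had 1 spliced and 10 unspliced reads at 34 °C against 67 and 29 at 25 °C. Intron 1 of maf1, for an inhibitor of RNA polymerase III, had 6 and 12 reads at 34 °C against 69 and 12 at 25 °C, with equal numbers of unspliced reads before scaling. The lowest shares, at 0 unspliced reads, were those of wtf4 intron 1, with 15 spliced reads at 34 °C and 106 at 25 °C, wtf22 intron 2, with 12 at 34 °C and 67 at 25 °C, his6 intron 2, with 10 spliced and 1 unspliced reads at 34 °C and 63 spliced reads at 25 °C, and the introns of wtf5 and SPBC1348.07 given above.

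Counted apart, spliced and unspliced reads moved differently. For the 34 °C-rich introns, spliced reads had a median log2 fold of 0.80, and 267 of 621 (43.0%) were 2-fold or more higher at 34 °C, where 15% of all 3406 introns were. Their unspliced reads had a median log2 fold of 3.64, and 602 (96.9%) were 2-fold or more higher, where 89.4% of all introns were. In 251 introns (40.4%) both kinds of read were 2-fold or more higher, as for rrp6 and lsm3, beside 9.17% of introns read in both libraries. In 304 (48.95%) the unspliced reads were higher with spliced reads within 2-fold, as for taf8, beside 56.1%. In 47 (7.57%) the unspliced reads were 2-fold or more higher and the spliced ones 2-fold or more lower, beside 25.0%. In 16 (2.58%), trx2, aph1 intron 3 and tad3 among them, spliced reads alone were higher, beside 0.558%.

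For the 25 °C-rich introns, spliced reads had a median log2 fold of -1.91, and 214 of 277 (77.3%) were 2-fold or more lower at 34 °C, where 29.8% of all introns were. Their unspliced reads went the other way as a median, with a log2 fold of 1.59. The unspliced reads were 2-fold or more higher in 182 (65.7%) and 2-fold or more lower in 19, where 1.12% of all introns were lower. The commonest pattern, in 146 introns (52.7%), was fewer spliced and more unspliced reads at 34 °C, as for rtf1 intron 2, beside 25.0% of introns read in both libraries. In 14 introns (5.05%), gih35 intron 8 and ryh1 intron 3 among them, both kinds were 2-fold or more lower, beside 0.399%. The rule chose introns by their summed reads, so these distances are not read as a result. Because the rule summed both kinds, spliced reads alone would have placed 236 of the 277 and only 177 of the 621 in the same direction.

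**Figure D4:**
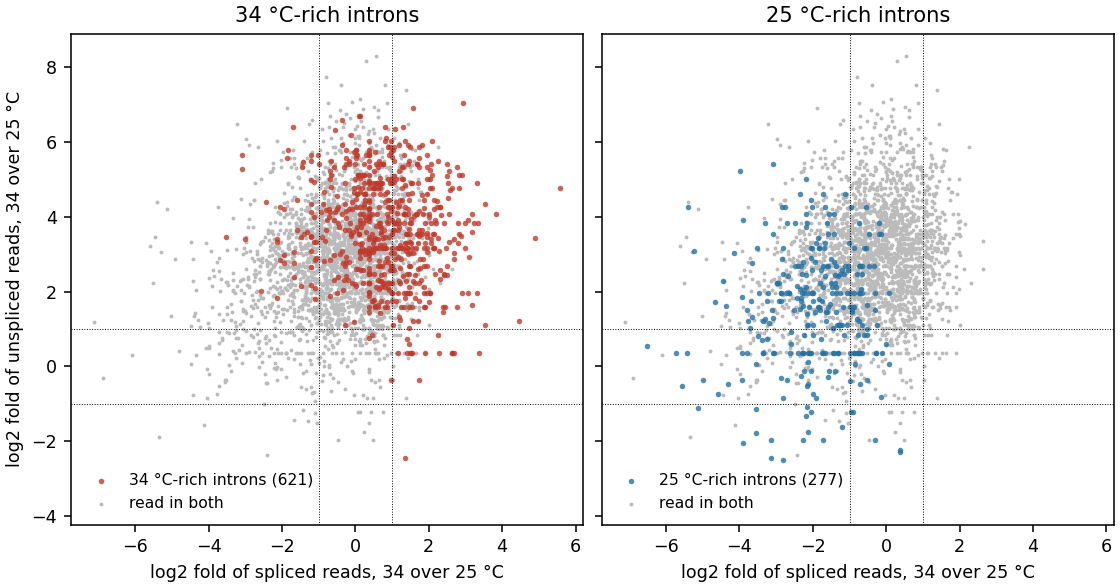
Log2 fold (34 °C over 25 °C, scaled by library totals, 0.5 reads added) of unspliced reads against that of spliced reads, for 34 °C-rich introns (left) and 25 °C-rich introns (right) as coloured points over introns read in both libraries in grey; dotted lines mark 2-fold differences. The 34 °C-rich points centre at 0.80 for spliced and 3.64 for unspliced reads, and the 25 °C-rich points at -1.91 and 1.59.

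By function, 178 of the 34 °C-rich and 80 of the 25 °C-rich introns fell in 1 or more of 18 lists of genes, and 443 and 197 fell in none. The counts below are over each list's introns with 20 or more reads in at least 1 library, beside 18.2% and 8.13% for all introns. Splicing factors gave 23 34 °C-rich and 2 25 °C-rich introns of 100. The 34 °C-rich ones had a median log2 fold of 2.08 and were in 19 genes, with lsm3, cyp3 and the U2 snRNP protein gene lea1 described above. The 2 25 °C-rich ones also belonged to the U6 snRNP: lsm2 intron 1 had 8 spliced and 11 unspliced reads at 34 °C against 55 and 3 at 25 °C, and lsm4 intron 3 had 5 and 6 reads at 34 °C against 35 and 2 at 25 °C. Genes of one particle, lsm2, lsm3 and lsm4, thus stood on both sides.

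Transcription and chromatin genes gave 36 34 °C-rich and 12 25 °C-rich introns of 116, or 31.0% and 10.3%. Besides taf8, intron 2 of set13, which the annotation names a methyltransferase of a ribosomal protein, had 28 spliced and 46 unspliced reads at 34 °C against 12 and 0 at 25 °C, 7.96-fold higher (4.29 to 16.1). On the other side, intron 2 of mhf1 had 14 spliced and 3 unspliced reads at 34 °C against 60 and 0 at 25 °C, 2.73-fold lower at 34 °C (1.57 to 5.0). Genes for the RNA polymerase II subunits, picked out after their values were seen, lay on both sides. In rpb1, for the largest subunit, 5 of 6 introns were 34 °C-rich, with 163 reads at 34 °C and 41 at 25 °C over all its introns, and the sixth had 19 reads at 34 °C against 3 at 25 °C. The single intron of rpb2, for the second largest subunit, had 43 reads at 34 °C and 13 at 25 °C. The small subunit genes rpb3, rpb4 and rpb9 held 2 25 °C-rich introns each, with 33, 101 and 103 reads at 34 °C over all their introns against 62, 150 and 249 at 25 °C, before scaling. The small subunit genes rpb5 and rpb8 held 1 34 °C-rich intron each, with 82 and 98 reads at 34 °C against 126 and 46 at 25 °C. The subunits of TFIIA also stood apart: toa1, for the large one, had 1 34 °C-rich intron and 81 reads at 34 °C against 39 at 25 °C, and toa2, for the small one, had all 3 introns 25 °C-rich and 30 reads at 34 °C against 140 at 25 °C. After scaling, the members of rpb3 and rpb4 had log2 folds between -0.46 and -0.61. Intron 4 of rpb9, with 51 reads at 34 °C against 31 at 25 °C, went the other way from its other introns. Genes such as rpb6, rpb7, rpb10 and rpb11 held no member. All introns of these genes had log2 folds above 0, and those of the small subunit gene rpb11 were 1.80 and 1.52.

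The wtf genes lay on one side. None of their 69 introns with 20 or more reads in at least 1 library was 34 °C-rich, and 18, in 11 genes, were 25 °C-rich, or 26.1%, with a median log2 fold of -2.05 among those 18. Of the 69, 47 were 2-fold or more lower and 4 were 2-fold or more higher at 34 °C. Of all 3406 introns, 11% were as much lower and 36.1% as much higher. Intron 3 of wtf21 had 15 spliced and 4 unspliced reads at 34 °C against 90 and 14 at 25 °C. The wtf genes share long stretches of sequence, so reads may be assigned to the wrong copy and the values of single wtf genes are uncertain. Their introns are therefore not separate observations. Their 18 members had a median unspliced share at 25 °C of 0%, and leaving wtf genes out moved the median share of 25 °C-rich introns to 5% and their median log2 fold to -0.87.

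Genes of meiotic prophase, recombination and the chromosome axis gave 4 34 °C-rich and 3 25 °C-rich introns of 15, or 26.7% and 20%. Intron 3 of mmi1, for the YTH protein that marks meiotic transcripts for removal in growing cells, had 1 spliced and 23 unspliced reads at 34 °C against 2 and 0 at 25 °C, and intron 2 of kms1, for a nuclear envelope protein, had 14 and 13 at 34 °C against 11 and 1 at 25 °C. The 3 25 °C-rich introns all belonged to rdh54, for a DNA translocase of recombination. Of its deeper members, intron 7 had 3 spliced and 10 unspliced reads at 34 °C against 20 and 2 at 25 °C, and its ratio of total reads did not differ from 1 beyond counting error (25 °C over 34 °C 1.31, 0.632 to 2.83). Genes of the meiotic divisions gave 0 34 °C-rich introns and 1 25 °C-rich intron of 34, intron 2 of cdc2, for the cyclin-dependent kinase, with 4 spliced and 4 unspliced reads at 34 °C against 28 and 1 at 25 °C. Spore formation genes gave 6 34 °C-rich and 0 25 °C-rich introns of 38, of which 4 were in spo14, for a GDP/GTP exchange factor of the secretory pathway. Genes with mug, meu or mde symbols, given to genes found by their expression in meiosis, gave 6 34 °C-rich and 7 25 °C-rich introns of 82, and genes of pheromone, mating and nitrogen starvation gave 0 of 8 in either direction. Among the mug genes, intron 2 of mug174, for a coilin, had 5 spliced and 53 unspliced reads at 34 °C against 3 and 5 at 25 °C, and intron 1 of mug30, for a ubiquitin ligase, had 5 and 9 at 34 °C against 74 and 7 at 25 °C.

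Cytosolic ribosomal protein genes gave 10 34 °C-rich and 0 25 °C-rich introns of 87. The deepest was that of rpl701, a gene matched by symbol but annotated as an RNase MRP subunit, without a spliced read. Intron 1 of rpp101, for the acidic protein P1, had 47 spliced and 29 unspliced reads at 34 °C against 13 and 2 at 25 °C. Many ribosomal proteins are encoded by near-identical gene pairs, so single copies are uncertain. Mitochondrial ribosome genes gave 4 34 °C-rich and 2 25 °C-rich introns of 20, and respiration and ATP synthase genes gave 4 and 1 of 69. Intron 1 of mrp5, for a mitochondrial ribosomal protein, had 16 spliced and 47 unspliced reads at 34 °C against 14 and 4 at 25 °C, again with spliced reads within 2-fold. In the other direction, intron 2 of cox20, for an assembly factor of respiratory complex IV, had 0 spliced and 16 unspliced reads at 34 °C against 24 and 2 at 25 °C, and its total reads differed by less than counting error (25 °C over 34 °C 1.26, 0.651 to 2.51).

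Heat shock proteins and chaperones gave 5 34 °C-rich and 1 25 °C-rich introns of 32, and core stress genes gave 3 and 0 of 11. Of the stress genes, intron 1 of atf1, for the transcription factor of the stress kinase pathway, had 11 spliced and 38 unspliced reads at 34 °C against 6 and 3 at 25 °C, 7.03-fold higher (3.42 to 16.3), and trx2 was given above. Of the chaperone genes, pfd1 held 3 of the 5 34 °C-rich introns. DNA replication and repair genes gave 16 34 °C-rich and 3 25 °C-rich introns of 72. Intron 5 of cds1, for the replication checkpoint kinase, had 12 spliced and 67 unspliced reads at 34 °C against 5 and 3 at 25 °C, and intron 3 of pms1, for a mismatch repair protein, had 48 and 17 at 34 °C against 7 and 1 at 25 °C. The pms1 reads were mostly spliced and the cds1 reads mostly unspliced, although the total of each was more than 10-fold higher at 34 °C.

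Proteasome and ubiquitin genes gave 18 34 °C-rich and 10 25 °C-rich introns of 143. The COP9 signalosome was on both sides, with intron 1 of csn1 at 32 spliced and 26 unspliced reads at 34 °C against 16 and 3 at 25 °C, and intron 2 of csn3 at 4 and 6 at 34 °C against 57 and 3 at 25 °C. Small GTPase and vesicle transport genes gave 35 34 °C-rich and 15 25 °C-rich introns of 227, a list collected by symbol that also took in gcs1, a glutamate-cysteine ligase gene. Intron 2 of apl5, for an AP-3 adaptor subunit, had 59 spliced and 5 unspliced reads at 34 °C against 14 and 0 at 25 °C, 5.90-fold higher (3.27 to 11.4). Cytoskeleton and motor genes gave 9 34 °C-rich and 3 25 °C-rich introns of 83, and membrane transporter genes gave 4 and 2 of 69. The deepest of these was intron 2 of vma1, for subunit A of the vacuolar ATPase, with 52 spliced and 19 unspliced reads at 34 °C against 11 and 2 at 25 °C, and on the other side intron 3 of alp1, for a tubulin chaperone, had 7 and 3 at 34 °C against 34 and 1 at 25 °C.

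Members were often alone in their gene. Of the 511 genes with a 34 °C-rich intron, 424 had 1 and 87 had 2 or more, and in 183 every intron was a member, 159 of these being genes with a single intron. Of the 202 genes with a 25 °C-rich intron, 152 had 1 and 50 had 2 or more, and in 48 every intron was a member. Genes with many 34 °C-rich introns included, beside rpb1, SPCC1529.01 with 4 of 4 introns and 170 reads at 34 °C against 19 at 25 °C, and spo14 with 4 of 5 introns and 250 reads at 34 °C against 50 at 25 °C. Genes with many 25 °C-rich introns included icp55, for a peptidase, with 7 of 11 introns and 129 reads at 34 °C against 369 at 25 °C, and trm5 with 5 of 7 introns and 104 reads at 34 °C against 503 at 25 °C. The dynein light chain gene dlc2 and nxt2, annotated as a nuclear import protein, had all 4 introns 25 °C-rich, with 49 and 30 reads at 34 °C against 181 and 165 at 25 °C.

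The other introns of the same genes were sorted by the rule too, so their values are a description. Of 727 other introns in genes with a 34 °C-rich intron, 25 were 25 °C-rich. Of 442 in genes with a 25 °C-rich intron, 31 were 34 °C-rich. In 279 genes with a 34 °C-rich intron and 20 or more reads over their other introns, those other introns were higher at 34 °C in 260 (93.2%), 2-fold or more higher in 131 (47.0%) and 2-fold or more lower in 0, with a median log2 fold of 0.97. In 1420 genes without a member, 75.5% were higher and 30.3% were 2-fold or more higher at 34 °C, with a median of 0.60. In 137 genes with a 25 °C-rich intron, the other introns were lower at 34 °C in 70 (51.1%), 2-fold or more lower in 29 (21.2%) and 2-fold or more higher in 19, with a median log2 fold of -0.05. Genes without a member were lower in 24.5% and 2-fold or more lower in 6.34%. The medians of the other introns lay between that of genes without a member and those of the members, which in these genes were 1.65 and -0.79. In genes with a 25 °C-rich intron the other introns were close to evenly split around 0, and the sign of their median depends on the scaling. The other introns of a gene come from the same libraries and transcripts, so they are no replicate. Since the rule also set which genes are without a member, the distance to those genes is not read as a result.

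Members of both directions, by counts before scaling, were found in 21 genes. In ftp105, whose product binds the ubiquitin protease Ubp5, the fold fell along the gene: introns 1 to 3 had 72, 83 and 322 reads at 34 °C against 12, 13 and 53 at 25 °C, introns 4 and 5 had 311 and 159 at 34 °C against 117 and 139 at 25 °C, and introns 6 and 7 had 9 and 6 at 34 °C against 34 and 20 at 25 °C. The log2 folds were 2.90, 2.997, 2.96, 1.77, 0.56, -1.49 and -1.29 in that order, from the start of the gene to its end. In sac3, for a factor of mRNA export, introns 1, 2 and 3 had 16, 26 and 43 reads at 34 °C against 33, 2 and 32 at 25 °C. Intron 2 of sac3 was 88.5% unspliced at 34 °C. In crd1, for a cardiolipin synthase and hydrolase fusion protein, intron 2 had 7 spliced and 6 unspliced reads at 34 °C against 67 and 1 at 25 °C, and intron 4 had 3 and 39 at 34 °C against 4 and 11 at 25 °C. The other 18 genes were SPAC4H3.01, ate1, bet4, hap2, iqw1, kap114, lig4, mtl16, mug162, nup45, ppk26, rho2, rmt1, sds21, tfs1, thf1, trt1 and vac14. In SPAC4H3.01, hap2, mtl16, nup45 and vac14 the 25 °C-rich intron had a scaled log2 fold above 0, between 0.04 and 0.23, so there the members were opposite by raw counts only.

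**Figure D5:**
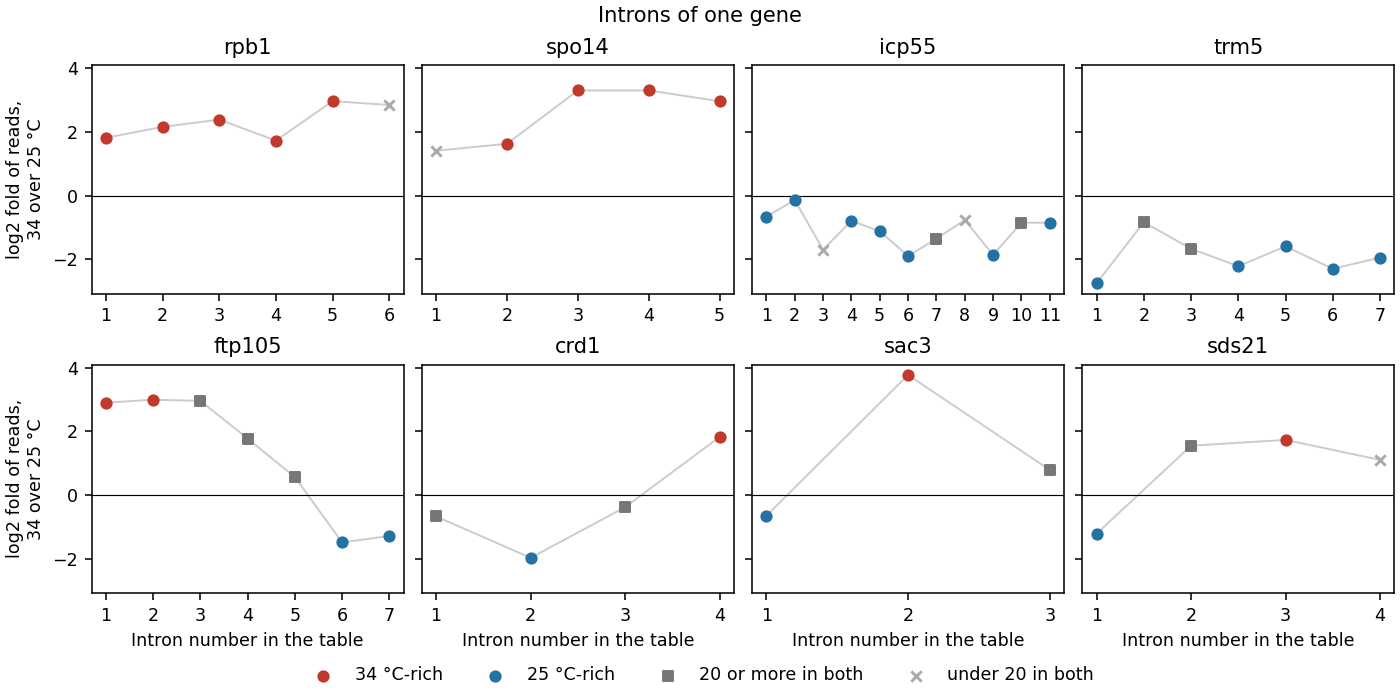
Log2 fold of reads (34 °C over 25 °C, scaled by library totals, 0.5 reads added) for each intron of 8 genes, numbered as in the deposited table; red marks 34 °C-rich, blue 25 °C-rich, dark squares introns with 20 or more reads in both libraries and crosses introns with under 20 in both. All introns of rpb1 and spo14 lie above 0 and all of icp55 and trm5 below 0, while ftp105, crd1, sac3 and sds21 hold introns on both sides.

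Length, GC content and place in the coding part were close between the directions, and other features differed more. Of the 586 34 °C-rich and 269 25 °C-rich introns that could be placed on the annotation, the median length was 55 and 53 bases, beside 58 for introns read in both libraries, the median GC content was 29.0% and 28.9%, and 98.0% and 97.4% lay in the coding part of the gene. The 5′ splice site letters GTAAGT opened 29.3% of the 34 °C-rich and 19.6% of the 25 °C-rich introns with a sure place, beside 30.6% of introns read in both, and GTATGT opened 23.6% and 16.3%, beside 21.7%. Chromosome III, where the wtf genes lie, held 15.2% of the placed 34 °C-rich and 22.3% of the placed 25 °C-rich introns, beside 18.1%. Genes with a single intron held 25.6% of the 34 °C-rich and 12.6% of the 25 °C-rich introns, beside 21.1% of the introns read in both. In plus-strand genes with 3 or more introns, the first intron made up 29.3% of 147 34 °C-rich and 15.8% of 101 25 °C-rich introns, beside 24.4% of 589 introns read in both.

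An exon of another gene overlapped 65.5% of the placed 34 °C-rich and 61.3% of the placed 25 °C-rich introns, beside 58.6% of introns read in both. Where strand is not used in counting, reads of such an exon and unspliced reads of the intron cannot be told apart. The introns of pkl1 (intron 1), arb1, fkh2, mad1, rrp6 and gih35 given above are overlapped by a noncoding RNA on the opposite strand. So are those of lsm3 and cyp3, whose reads at 34 °C were mostly unspliced. The introns of taf8, slm5 and mst2, also mostly unspliced there, are overlapped by another gene on the opposite strand. The places of the lsm3, cyp3, slm5 and mst2 introns are not sure. The introns of wtf5, SPBC1348.07, aco1 and lea1 are not overlapped. The 202 34 °C-rich introns free of such overlap had a median unspliced share of 55% at 34 °C, and the 104 free 25 °C-rich introns had one of 4.55% at 25 °C. Both values are close to those of the whole sets.

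The median coding length of genes with a 34 °C-rich intron was 1264.5 bases over 508 genes, against 969 bases over 201 genes with a 25 °C-rich intron, a comparison made after the data were seen. It was 939 bases over 1439 genes with an intron read in both libraries and again 1264.5 bases over 1134 genes with an intron under 20 reads in both, so the length is not particular to the 34 °C-rich genes. Over 5 groups of introns of like size ordered by coding length, 34 °C-rich introns made up 9.77%, 11.9%, 20.47%, 19.9% and 28.9% from the shortest to the longest genes, while 25 °C-rich introns made up 8.45%, 9.35%, 7.89%, 6.94% and 7.95%. Depth fell along the same order at both temperatures, with medians of 77, 65, 50, 53 and 43 reads at 34 °C and of 70, 60, 42, 45 and 31 reads at 25 °C, and its part in the length difference was not tested.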

How the data were processed

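PolyA RNA of 1 culture at 34 °C and 1 at 25 °C was sequenced, and each library was assigned to its temperature from its title. The authors deposited, per the file headers, raw counts of reads for every intron, with spliced and unspliced reads apart. The submitters' processing notes name TopHat and SAMtools without versions. The build, the gene models, the program that counted reads, strand handling and what made a read unspliced were not given in the sources used here. A smaller deposited table, limited to deeply read introns, was not used.

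Reads were summed per intron, the rule was applied, and the counts were scaled by library totals (493659 at 34 °C and 636989 at 25 °C). Ratios have exact 95% Clopper-Pearson intervals, which cover counting error only, and log2 folds had 0.5 reads added to each count. A library with 0 reads was set at 3 reads to give a fold, which leaves out counting error in the deeper library. Python 3.11.15, pandas 2.3.3, NumPy 2.4.6, SciPy 1.17.1 and matplotlib 3.10.9 were used, and the interval code was tested on simulated data. No test compares the temperatures, since each has 1 library.

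Gene names, functions and sequences come from RefSeq ASM294v3, which matched 2541 of 2548 genes. Introns were matched to it by their number in the table, counted from the left end of the chromosome, if they were 30 bases or longer, which placed 5041 of 5374. The place is independent of the numbering direction only for genes on the plus strand or with a single intron, here called sure. Every printed sequence is from these. The annotation may differ from the authors' own.

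The members and the gene lists were chosen with earlier results of these data known. Lists were matched by symbol, and some symbols fall in a list by their prefix alone. Named introns were, per direction, the 12 with the largest absolute log2 fold, the 10 deepest, the genes with most members, the 2 deepest of each list, the 5 with the highest and lowest unspliced share among those with 50 or more reads, and genes with members of both directions. RNA polymerase II genes, the coding length comparison and the introns set beside a named member of the same gene were added after values were seen. Alternatives were other read minimums, scalings, spliced reads alone, 1 intron per gene and introns free of overlapping exons.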

Additional observations from a re-analysis of the deposited data

How the results depend on the processing

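No paired analysis was possible because each temperature has 1 library, and for the same reason no replicate could be left out. Scaling by spliced totals or by the median ratio of introns read in both libraries shifts every log2 fold by 0.64 or by -0.47. The median log2 fold was then 2.40 or 1.30 for 34 °C-rich introns (1.77 with library totals) and -0.29 or -1.40 for 25 °C-rich introns (-0.93). The number of 25 °C-rich introns 2-fold or more lower at 34 °C was 130 with library totals, 73 with spliced totals and 195 with the median ratio. Counted on spliced reads alone and on unspliced reads alone, settings added after the data were seen, it was 214 and 19, and the number of 34 °C-rich introns 2-fold or more higher was 267 on spliced reads, against 547 on both. With the rule applied to spliced reads alone there were 209 34 °C-rich and 772 25 °C-rich introns, so the larger direction turned. With the rule applied to scaled reads there were 872 34 °C-rich introns, within 1.5 times of 621, and 173 25 °C-rich ones, against 277. Limiting the sets to introns free of overlapping exons left 202 and 104, which follows from fewer introns being used. A minimum of 10 reads moved the median unspliced share in the deeper library to 57.1% for 34 °C-rich and 7.42% for 25 °C-rich introns. The cause of these shifts was not tested. No median log2 fold of the members' summed reads changed sign under the scalings and added reads tried, whereas unspliced reads alone had a median of 1.59 in the 25 °C-rich introns. In all, 27 of 42 values moved by less than the limits set for them, while 15 moved by more. Depth limits single introns: mad1 intron 1, with 11 of 22 reads unspliced at 34 °C, has a share of 50% with an exact interval of 28.2% to 71.8%.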
